A study of Mus musculus with 11 samples.

Results

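The array described here is labelled Lung, 1 of 11 mouse 2-colour cDNA arrays in a study of RAS isoforms in melanocytes. It was taken by its label and set against the mean of the arrays labelled Kidney and Liver, and separately against the higher and the lower of these. Its marker genes went against its label: Alb, Serpina1e, Mat1a and Mbl2, all known as liver genes, were far higher on it than on any other array, and genes of lung epithelium were not. The array is named below by its label alone, as are the others. The Lung, Kidney and Liver samples were total RNA of mouse organs, with 1 array each. The labels used here give no strain, age, sex or number of animals, and which organ each RNA came from was not tested.

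On each array the sample's own RNA carried Cy3 and a mouse embryo reference RNA carried Cy5, so every level is relative to the embryo. The deposited values were taken as log2 ratios, and their sign was turned so that a positive level means more signal from the sample than from the embryo reference. That direction is likely but not stated, and the sample titles, which name the sample before the reference, run against it. It was chosen because organ genes then stand high on 1 array and low on the others, so the direction of the organ genes is not independent evidence for it. If the deposited sign were kept, every level and difference below would turn. Levels compare arrays for 1 gene and say nothing of one gene against another.

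Of 7114 genes named on the arrays, 7068 had values on the Lung, Kidney and Liver arrays. With 1 array per group there was no replicate, no error of a condition and no test, and a gene was counted as apart at 2-fold, a log2 difference of 1. The only error that could be measured was between probes of a gene: over the 1810 genes with several probes, the SD of the Lung minus mean difference had a median of 0.232 and a root mean square of 0.494. For 8 genes, probes differed 2-fold in opposite directions. The deposited values spread more widely on the Lung array (SD 0.990) than on the Kidney array (SD 0.905) and the Liver array (SD 0.733).

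Hepatocytes, the main cells of the liver, make most plasma proteins: albumin, carriers of hormones and lipids, protease inhibitors and complement. They also dispose of amino acids, make glucose and bile acids, and oxidise foreign compounds. Many of their genes are driven by HNF1 and C/EBP, transcription factors that bind near the start of these genes, including that of albumin.

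The promoters of 3 genes that stood far apart are shown because their windows hold letters that such factors are known to bind. Each runs from 250 bases before to 50 bases after the start of the gene, 5′ to 3′ on the gene's strand, from RefSeq on build GRCm38.p6. Alb lies at chr5:90460620-90460919 on the plus strand, Serpina1e at chr12:103956848-103957147 on the minus strand, and Slco1b2 at chr6:141629268-141629567 on the plus strand. Capitals mark matches to GTTAATNAT or its first 6 letters GTTAAT (HNF1) and to TTGCNNAA (C/EBP), searched on both strands.
Alb: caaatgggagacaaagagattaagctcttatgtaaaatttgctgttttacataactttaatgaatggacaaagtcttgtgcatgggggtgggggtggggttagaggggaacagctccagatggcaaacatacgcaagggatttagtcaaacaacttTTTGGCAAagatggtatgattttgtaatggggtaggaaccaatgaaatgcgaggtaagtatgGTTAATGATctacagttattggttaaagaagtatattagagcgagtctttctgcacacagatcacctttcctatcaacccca
Serpina1e: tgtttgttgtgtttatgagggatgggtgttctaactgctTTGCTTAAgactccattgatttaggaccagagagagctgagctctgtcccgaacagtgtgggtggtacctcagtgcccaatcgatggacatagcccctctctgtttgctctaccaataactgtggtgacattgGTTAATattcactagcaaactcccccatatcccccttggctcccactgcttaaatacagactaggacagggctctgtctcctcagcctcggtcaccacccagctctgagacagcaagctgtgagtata
Slco1b2: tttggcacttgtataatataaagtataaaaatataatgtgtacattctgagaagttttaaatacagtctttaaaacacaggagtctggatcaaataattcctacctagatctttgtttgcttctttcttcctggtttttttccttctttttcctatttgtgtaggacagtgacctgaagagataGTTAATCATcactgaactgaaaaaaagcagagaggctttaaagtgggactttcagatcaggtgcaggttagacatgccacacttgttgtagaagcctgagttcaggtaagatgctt

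In Alb, GTTAATGAT begins 32 bases before the start, and TTTGGCAA, a C/EBP match on the other strand, begins 94 bases before it. In Serpina1e, GTTAAT begins 78 bases and TTGCTTAA 211 bases before the start. In Slco1b2, GTTAATCAT begins 66 bases before the start. GTTAATNAT was found in 0.801% of the 32851 RefSeq promoter windows searched and in 0.355% of the 7315 searched windows of measured genes. The windows of a whole chromosome were left out of the search. Searched windows were matched for 228 of the 296 genes 2-fold above both other organ arrays, and 6 of their 302 windows held it (1.99%). These were the windows of Alb, Arfgap2, Cp, Nr5a2, Slco1b2 and Trim30d, named for the match after the values were seen. Of the 262 windows of genes 2-fold below both, 1 held it (0.382%). The shorter GTTAAT, which every GTTAATNAT contains, was in 6.95% of the windows of genes above both and in 4.51% of measured windows. TTGCNNAA was in 9.93% of the windows of genes above both and in 8.19% of measured windows. A match is a run of letters and does not show that a factor binds there.

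Albumin, the main protein of plasma, set the Lung array apart most of all. Alb stood at 2.54 on the Lung array, against -6.21 on the Kidney array and -6.95 on the Liver array. The Lung value was 8.75 above the higher of these, a 430-fold difference if the values are log2. On the other 8 arrays, Alb lay between -8.22 and -6.59, so no other array came near the embryo reference for this gene.

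The other liver markers had the same pattern. Serpina1e, an alpha-1-antitrypsin that inhibits proteases in plasma, stood at 3.09 on the Lung array, -3.62 on the Kidney array and -6.80 on the Liver array. Its cDNA probe may also read near-identical Serpina1 paralogs, which was not tested. Mat1a, which makes the methyl donor S-adenosylmethionine in liver, stood at 5.25 on the Lung array, -2.45 on the Kidney array and -1.79 on the Liver array. Mbl2, the mannose-binding lectin that starts complement, stood at 6.35 on the Lung array, -0.77 on the Kidney array and -0.27 on the Liver array. For all 4 genes the Lung array was the highest of 11, as it was for 880 of the 7035 genes with values on all 11 (12.5%). The median of their Lung minus mean differences was 7.84, against -0.04 over all genes, and each gene had 1 probe. The 4 genes were chosen with earlier results of these data known, so their height describes the array and is not independent evidence. They are counted again in the lists below.

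**Figure D1:**
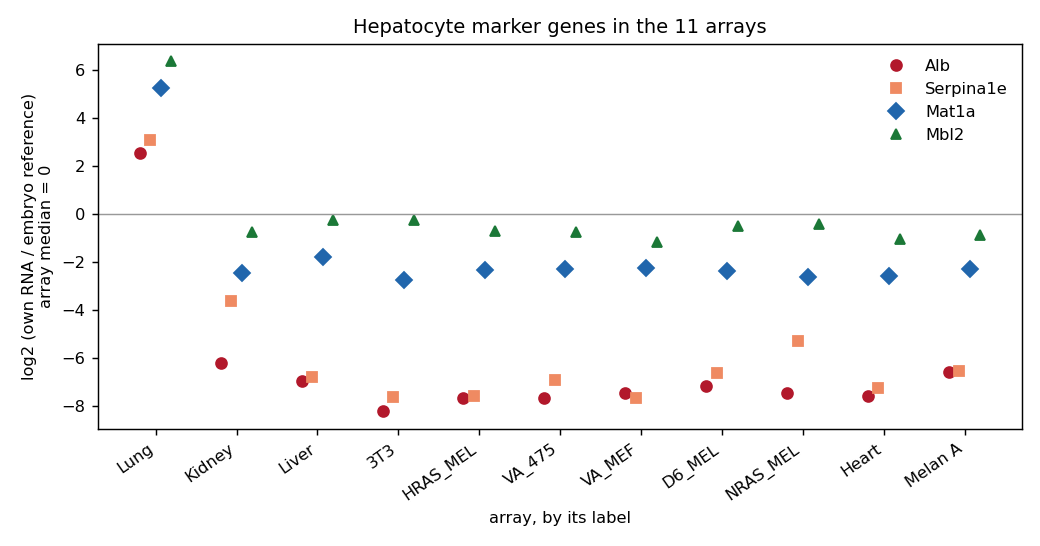
Levels of Alb, Serpina1e, Mat1a and Mbl2 (y axis, log2 of own RNA over embryo reference, array median at 0) on each of the 11 arrays (x axis, by label, Lung first), 1 point per gene and array. On the Lung array all 4 lie above 0, between 2.54 and 6.35, and on the Kidney and Liver arrays all lie below it.

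Across all genes, 499 of 7068 (7.06%) were at least 2-fold higher on the Lung array than the mean of the Kidney and Liver arrays, and 588 (8.32%) were at least 2-fold lower. Against each array singly, 296 genes (4.19%) stood 2-fold above both and 251 (3.55%) 2-fold below both. The higher side held the larger differences: 21 genes were 16-fold above both, and 4 were 16-fold below both. A further 396 genes were 2-fold above the Liver array and within 2-fold of the Kidney array, and 160 were 2-fold above the Kidney array and within 2-fold of the Liver array.

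**Figure D2:**
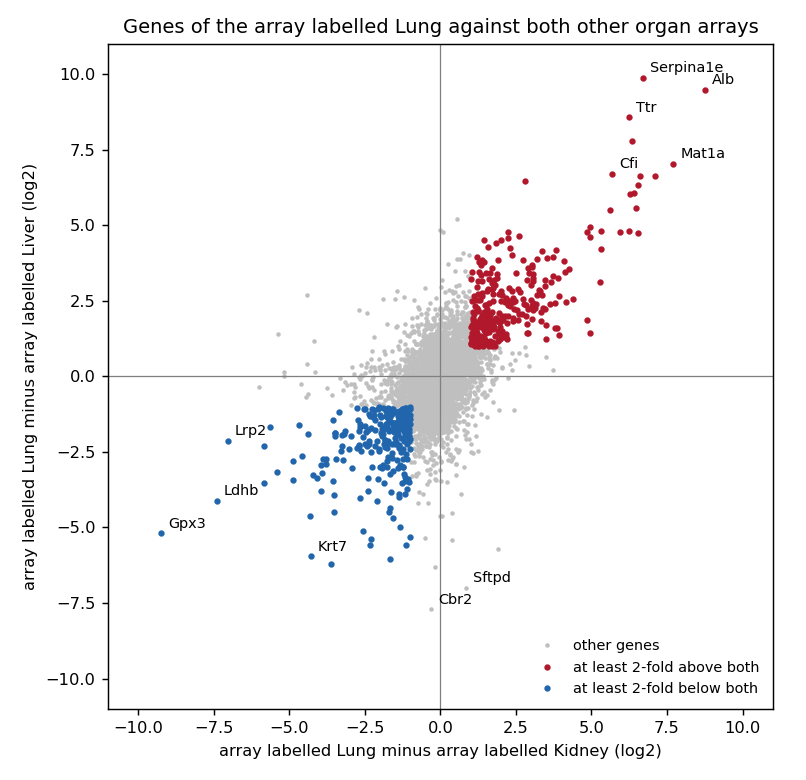
Each point is 1 of 7068 genes, with the Lung minus Kidney difference on the x axis and the Lung minus Liver difference on the y axis (both log2). The 296 red genes at the upper right, Alb among them, are 2-fold above both arrays, and the 251 blue genes at the lower left are 2-fold below both.

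The comparison with the Kidney and Liver arrays did not use the other 8 arrays. Of the 293 genes 2-fold above both other organ arrays with values on all 11, 179 (61.1%) were also 2-fold above every one of these 8 arrays; over all 7035 such genes, 312 (4.43%) were. Of the 250 genes 2-fold below both, 36 (14.4%) were also 2-fold below all 8, against 63 (0.896%) over all genes. All arrays share the embryo reference and the Lung array itself stands in both counts, so the comparisons are not independent. In the correlation of levels across genes, which are not independent replicates, the Lung array was nearest to the Kidney array (Pearson r = 0.569 over 7081 genes), then to the array labelled Melan A (r = 0.381 over 7076 genes) and the Liver array (r = 0.288 over 7075 genes). These too are labels alone: for 7 measured heart and striated muscle genes, the median level was 3.13 on the Melan A array. On the array labelled Heart it was -0.42, and which tissue each RNA came from was not tested.

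The genes were grouped by what their products do, in lists of which many members were not on the arrays. Counts per list are to be read beside the shares over all genes. Of all genes, 7.06% were 2-fold above the mean and 8.32% below it, while 4.19% were above both arrays and 3.55% below both. Carriers in plasma were higher without exception: all 7 measured genes of a list of 39, Alb included, were 2-fold above both the Kidney and Liver arrays and highest of 11 on the Lung array (12.5% over all genes), with a median Lung minus mean difference of 4.76. Ttr, the carrier of thyroid hormone and of retinol with its binding protein, stood at 3.33 on the Lung array, -2.89 on the Kidney array and -5.25 on the Liver array. Serpina6, which binds glucocorticoids in blood, stood at 2.28 on the Lung array, against -2.67 on the Kidney array and -2.33 on the Liver array. Itih1, a heavy chain of the inter-alpha inhibitor, stood at 4.13 on the Lung array, against -1.20 on the Kidney array and -0.07 on the Liver array.

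The copper protein ceruloplasmin was high elsewhere as well. Its gene, Cp, stood at 3.99 on the Lung array, 0.34 on the Kidney array and 0.86 on the Liver array, and reached 3.33 on the HRAS_MEL array. Selenop, which carries selenium, stood at 3.93 on the Lung array, 1.0 on the Kidney array and 0.50 on the Liver array.

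Of 6 measured genes of the protease inhibitor list, 4 (Serpina1e, Itih1, Serpinf1 and Serping1) were 2-fold higher and none was 2-fold lower (median 3.93). Itih1 is also counted among the carriers, and not every member of the list is known to inhibit a protease. Over all genes, 7.06% were higher and 8.32% lower. Serpinf1, which encodes pigment epithelium-derived factor, stood at 2.89 on the Lung array, -3.64 on the Kidney array and -1.84 on the Liver array. Serping1, the inhibitor of complement C1, stood at 3.42 on the Lung array, -0.36 on the Kidney array and 1.0 on the Liver array. A2m and Spp2 were not apart, with Lung minus mean differences of 0.02 and -0.07. Of the clotting list, only 4 of 27 genes were measured: F3, Plat, Pros1 and Proc. F2, Fga, Fgb, Fgg and Plg were among those not measured, so the list says little of the clotting genes of liver. None of the 4 was 2-fold higher, and the median was -0.10. Proc, which encodes the anticoagulant protein C made in liver, differed by 0.26, and its probe lay between -0.24 and 0.29 on all 11 arrays. The probes of Pros1 gave 1.59 and 0.28. Plat, tissue plasminogen activator, was lower at -1.41, but its probes disagreed, at -0.34 and -2.48.

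Complement and lectin genes were higher as a group: all 7 measured of 29 were 2-fold above the mean, 6 were 2-fold above both arrays, and all 7 were highest of 11 on the Lung array, against 12.5% of all genes (median 3.01). Cfi, the protease that inactivates C3b, stood at 3.66 on the Lung array, -2.01 on the Kidney array and -3.04 on the Liver array. C1ra, a protease of the C1 complex, stood at 3.92 on the Lung array, -0.01 on the Kidney array and 1.26 on the Liver array. The chains of C1q are known as products of macrophages rather than hepatocytes, and their differences were smaller: C1qa 1.69, C1qc 1.69 and C1qb 1.13 above the mean. Other macrophage genes differed less or the other way, with Fcgr3 at 0.93 and the class II gene H2-Eb1 at -1.52. In the macrophage list, 3 of 10 measured genes, the C1q chains, were 2-fold higher and 2, Lyz2 and H2-Eb1, were 2-fold lower (median 0.28).

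Genes of lipoproteins were divided. Of 8 measured, 6 were 2-fold higher, 5 of them above both arrays, and 1 was lower (median 3.03). Apoa1, the main protein of high-density lipoprotein, stood at 1.89 on the Lung array, -4.65 on the Kidney array and -4.44 on the Liver array. Apoc2, the cofactor of lipoprotein lipase, was 5.36 above the mean, and Mttp, which loads lipid onto apolipoprotein B, was 3.37 above it. Lpl, the lipase that clears lipoproteins in muscle and fat, was lower, at -2.55 on the Lung array, 0.93 on the Kidney array and -0.57 on the Liver array. Apob itself, known as a liver and gut gene, stood at 0.20 on the Lung array, 0.30 on the Kidney array and -0.04 on the Liver array, a difference of 0.08 from the mean. Its probe lay between -0.04 and 0.60 on all 11 arrays, so it set none of them 2-fold apart.

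**Figure D3:**
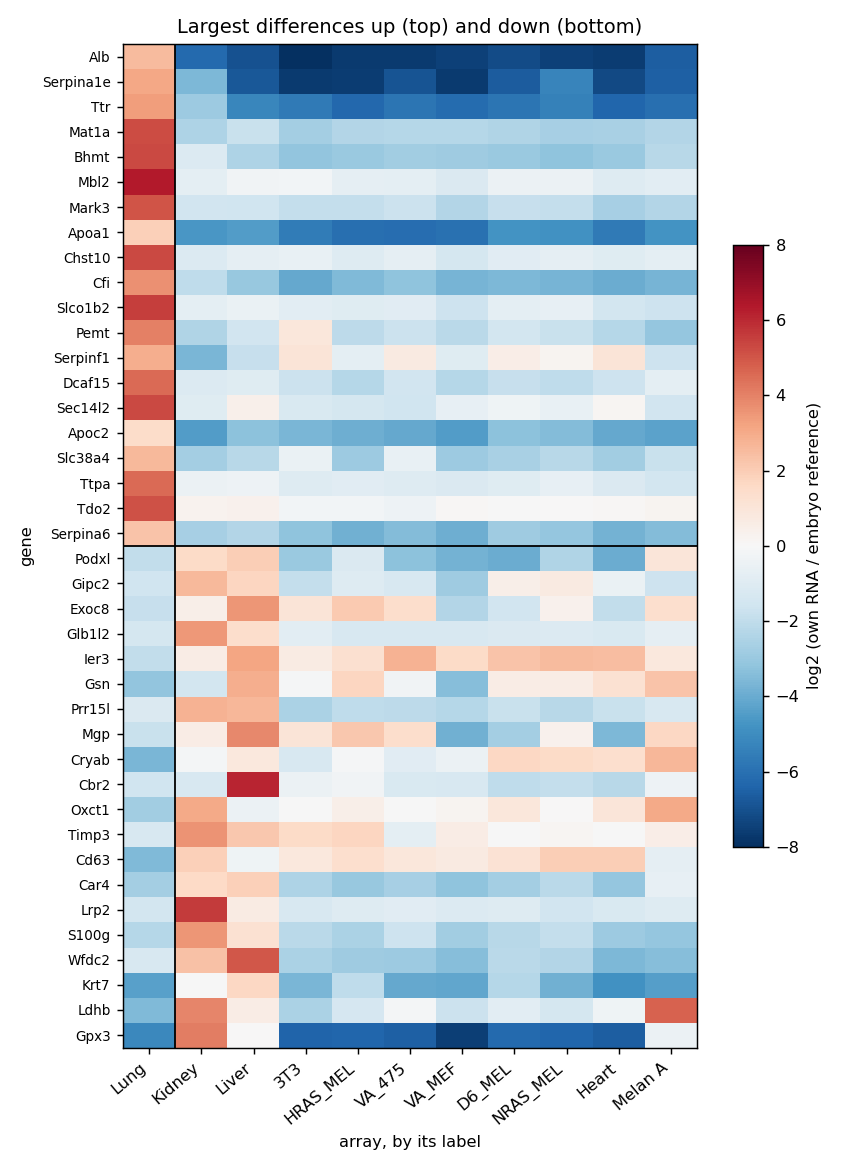
Levels (colour, log2 of own RNA over embryo reference, red above and blue below 0, saturated at 8) of the 20 genes highest (top) and the 20 lowest (bottom) in the Lung minus mean difference, on all 11 arrays with Lung at the left. The top genes are red in the Lung column and mostly blue elsewhere, while many of the bottom genes are blue on several arrays.

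Enzymes of amino acid breakdown and the urea cycle had 19 of 56 listed genes measured. Of these, 16 were 2-fold higher, 11 were 2-fold above both arrays, none was 2-fold lower, and 14 were highest of 11 on the Lung array, against 12.5% of all genes (median 2.51). Bhmt, which remethylates homocysteine with betaine, stood at 5.28 on the Lung array, -1.07 on the Kidney array and -2.49 on the Liver array. Tdo2, the first enzyme of tryptophan breakdown, stood at 5.11 on the Lung array, 0.26 on the Kidney array and 0.32 on the Liver array. Cdo1, which oxidises cysteine, stood at 4.37 on the Lung array, 0.24 on the Kidney array and 0.92 on the Liver array.

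Some of these enzymes were shared with the Kidney array. Asl, the argininosuccinate lyase of the urea cycle, stood at 3.66 on the Lung array, 2.08 on the Kidney array and -0.63 on the Liver array. Fah, the last enzyme of tyrosine breakdown, stood at 3.70 on the Lung array, 2.27 on the Kidney array and -0.83 on the Liver array. Ahcy, which hydrolyses S-adenosylhomocysteine, was 3.41 above the mean, but its 3 probes gave 1.38 to 4.77. Glul, glutamine synthetase, was not apart (-0.63), nor was Cbs, which condenses homocysteine and serine (-0.40).

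Of 8 measured genes of glucose and glycogen metabolism, 5 were 2-fold higher and 4 were above both arrays (median 1.81). Pygl, the liver form of glycogen phosphorylase, stood at 2.32 on the Lung array, -1.40 on the Kidney array and -1.01 on the Liver array. Ppp1r3b, a glycogen-targeting subunit of protein phosphatase 1, stood at 1.80 on the Lung array, -2.46 on the Kidney array and -1.76 on the Liver array. Pcx, pyruvate carboxylase, was about as high on the Kidney array: 2.56 on the Lung array, 2.30 on the Kidney array and -1.17 on the Liver array. Kidney also makes glucose.

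In bile acid and sterol metabolism, 4 of 6 measured genes were 2-fold above both arrays (median 2.10). Slco1b2, a bile acid and organic anion importer of the hepatocyte, stood at 5.51 on the Lung array, -0.75 on the Kidney array and -0.52 on the Liver array. Scp2, which acts in peroxisomal bile acid synthesis, stood at 3.62 on the Lung array, 2.0 on the Kidney array and 0.41 on the Liver array, and its 3 probes gave differences from 2.13 to 2.63. Nr0b2, which encodes the nuclear receptor SHP, was at -0.38 in its difference and Cyp7b1 at 0.69, and neither was apart.

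Fatty acid oxidation genes stood farther above the Liver array than above the Kidney array. Of 15 measured genes, 12 were 2-fold above the mean, but 4 were above both arrays (median 1.62). The Lung array was highest of 11 for 2 of the 15, near the 12.5% over all genes. The list's median level was 1.71 on the Lung array, 1.03 on the Kidney array and -0.75 on the Liver array, and 2.50 on the array labelled Melan A. Acadm, medium-chain acyl-CoA dehydrogenase, stood at 1.23 on the Lung array, 3.13 on the Kidney array and -1.32 on the Liver array. Acaa2, a mitochondrial thiolase, stood at 2.06 on the Lung array, 0.37 on the Kidney array and -1.53 on the Liver array. Respiratory chain genes were seldom apart: 1 of 52 measured was 2-fold higher, Sdhb at 1.11, and none was lower (median 0.25). Among all genes, 7.06% were higher and 8.32% lower.

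Peroxisomal and antioxidant genes were more often higher: 14 of 23 were 2-fold above the mean, 10 were above both arrays and 13 were highest of 11, against 12.5% of all genes (median 1.29). Cat, catalase, stood at 3.99 on the Lung array, 1.98 on the Kidney array and -0.52 on the Liver array. Crot, which prepares shortened fatty acids for export from peroxisomes, stood at 4.24 on the Lung array, 1.63 on the Kidney array and -0.42 on the Liver array. Within the glutathione peroxidases the members parted: Gpx1 was 2.26 above the mean, Gpx4 differed from it by -1.16, and Gpx3, a plasma enzyme that kidney is known to secrete, was far lower, as given with the kidney genes.

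Of 12 measured phase I metabolism genes, 10 were 2-fold higher and 7 above both arrays, against 7.06% and 4.19% of all genes (median 2.30). Aox3, an aldehyde oxidase of liver, stood at 4.29 on the Lung array, -0.55 on the Kidney array and 2.43 on the Liver array. Cyp17a1, known for steroid hormone synthesis, stood at 4.05 on the Lung array, 0.86 on the Kidney array and 0.16 on the Liver array. Ces1f, a carboxylesterase, was high on all 3 arrays, at 6.0 on the Lung array, 4.15 on the Kidney array and 2.74 on the Liver array; other Ces1 genes are close copies and the probe may read them, which was not tested.

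In conjugation, 5 of 10 measured genes were 2-fold above both arrays, against 4.19% of all genes, and the others were not apart (median 0.97). Mgst1, a membrane-bound glutathione transferase, stood at 5.17 on the Lung array, -0.13 on the Kidney array and 2.05 on the Liver array. Gstm6 was 3.32 above the mean, while Gstm5 was at -0.58, and Gstm1 had 3 probes that gave -0.34 to 3.09. The Gstm genes are close copies, and probes may read several.

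Of 9 measured transcription factors and nuclear receptors of liver, 4 were 2-fold higher and above both arrays, against 4.19% of all genes (median 0.92). Nr5a2, a nuclear receptor of liver and pancreas, stood at 2.27 on the Lung array, -0.89 on the Kidney array and -0.13 on the Liver array, and its 3 probes gave 2.31 to 3.25. Gata4 stood at 1.05 on the Lung array, -0.98 on the Kidney array and -0.84 on the Liver array. It reached 3.33 on the array labelled Melan A, where the heart and striated muscle list had a median level of 3.13. Srebf1, which drives lipid synthesis, was 1.73 above the mean and Nr1h3, the oxysterol receptor LXR alpha, 1.55 above it. Gata6, Tef and Tbx3 were not apart, at -0.47, -0.26 and -0.12. The Gata6 value takes in a probe with a value on the Lung array but none on the Kidney and Liver arrays. Its other probes gave -0.08 and -0.18.

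Of 19 measured genes for iron, haem and copper, 7 were 2-fold higher, 6 of them above both arrays, and none was 2-fold lower (median 0.64). The shares over all genes were 7.06%, 4.19% and 8.32%. Slc40a1, the iron exporter ferroportin, stood at 1.32 on the Lung array, 0.03 on the Kidney array and -2.48 on the Liver array. Blvrb, a biliverdin reductase, was 2.63 above the mean and Cpox, an enzyme of haem synthesis, 2.41 above it. The secretory list followed at a lower scale: 10 of 50 were 2-fold higher and none lower, and 3 were above both arrays (median 0.47). Vkorc1, which recycles vitamin K, stood at 1.78 on the Lung array, -0.53 on the Kidney array and -0.56 on the Liver array, and Lman1, a cargo receptor for clotting factors, was 1.10 above the mean.

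**Figure D4:**
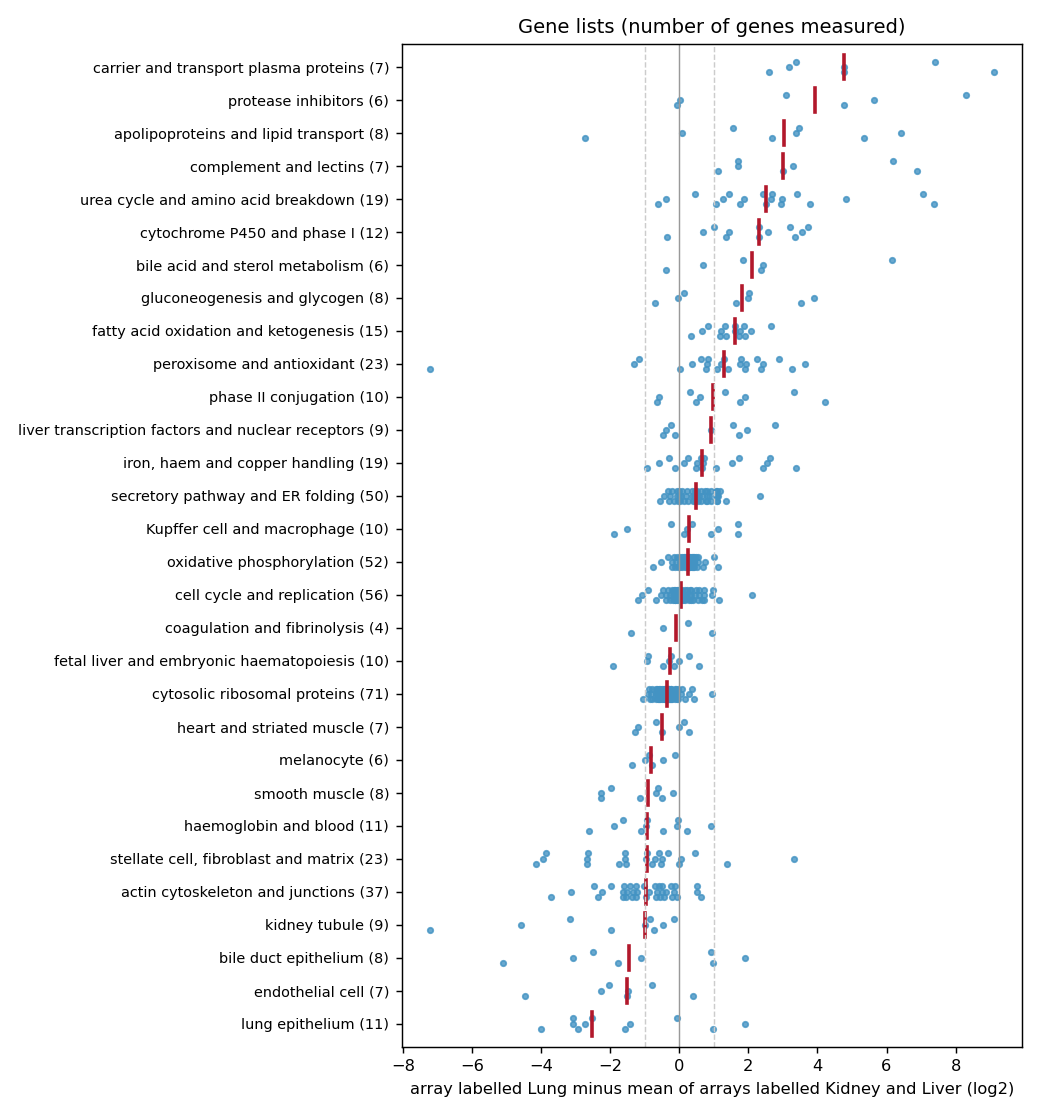
Lung minus mean of Kidney and Liver differences (x axis, log2) of the measured genes of 30 lists (rows, number measured in brackets), with a blue point per gene, a red bar at each list's median and dashed lines at 2-fold. Plasma carriers lie farthest to the right, at a median of 4.76, and lung epithelium lies farthest to the left, at a median of -2.52.

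Several of the genes highest against the mean belong to no list. Pemt, which methylates phosphatidylethanolamine to phosphatidylcholine in liver, stood at 4.05 on the Lung array, -2.42 on the Kidney array and -1.53 on the Liver array. Ttpa, the hepatic transfer protein for vitamin E, stood at 4.51 on the Lung array, -0.45 on the Kidney array and -0.42 on the Liver array. Slc38a4, an amino acid transporter, stood at 2.58 on the Lung array, -2.75 on the Kidney array and -2.24 on the Liver array, and its 2 probes gave 4.87 and 5.28. Mark3 (6.62 above the mean), Chst10 (6.23) and Dcaf15 (5.56) were as far apart but are not known here as liver genes; each had 1 probe, and whether those probes carry the named genes was not tested.

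On the low side, genes that mark lung epithelium were low on the array that bears the label Lung. Of 11 measured, 8 were 2-fold lower than the mean, 4 were below both arrays and 1, the keratin gene Krt18, was higher (median -2.52). The list's median level was -0.54 on the Lung array, -0.92 on the Kidney array and 2.64 on the Liver array, so by this median the Lung and Kidney arrays lay close together and the Liver array apart. Sftpd, surfactant protein D, stood at -1.25 on the Lung array, -2.10 on the Kidney array and 5.75 on the Liver array. Cbr2, a carbonyl reductase abundant in mouse lung, stood at -1.61 on the Lung array, -1.28 on the Kidney array and 6.10 on the Liver array. Slc34a2, a phosphate transporter of alveolar type II cells, stood at -0.54 on the Lung array, -0.92 on the Kidney array and 4.88 on the Liver array.

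Of the 9 measured kidney tubule genes, 4 were 2-fold lower than the mean and 2 below both arrays, and none was higher (median -0.98). The list's median level was -0.95 on the Lung array, 3.46 on the Kidney array and -0.03 on the Liver array. Gpx3 had the largest deficit of all, with -5.18 on the Lung array, 4.07 on the Kidney array and 0.00 on the Liver array. Lrp2, the endocytic receptor megalin, stood at -1.44 on the Lung array, 5.60 on the Kidney array and 0.68 on the Liver array. Miox, which opens inositol in tubule cells, stood at -0.01 on the Lung array, 6.0 on the Kidney array and 0.34 on the Liver array.

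**Figure D5:**
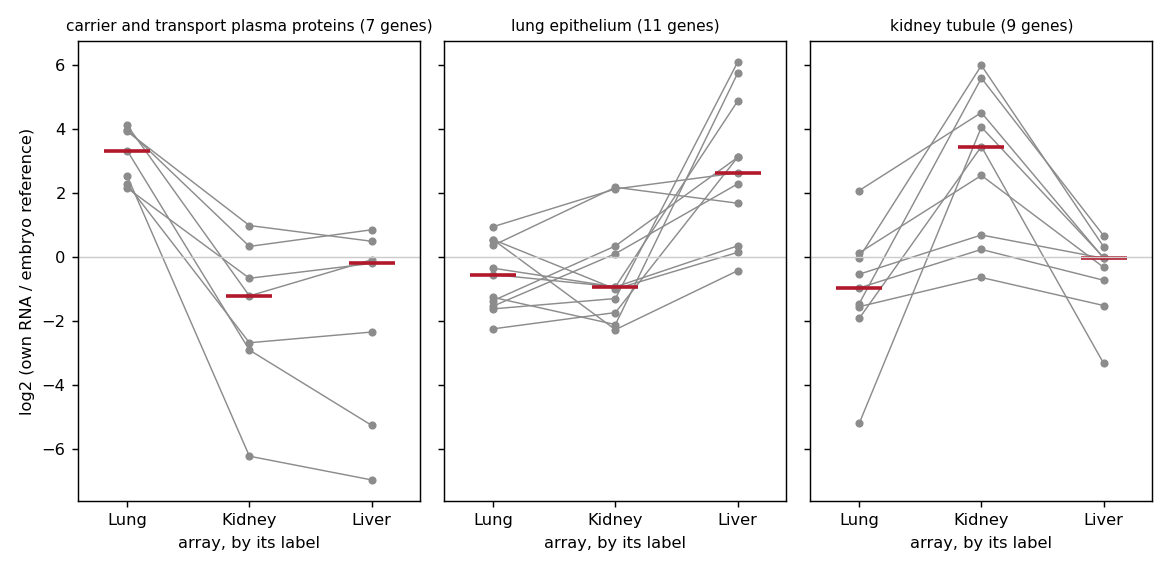
Levels (y axis, log2 of own RNA over embryo reference) on the Lung, Kidney and Liver arrays (x axis, left to right) for 3 lists, with a grey line per gene and a red bar at the list's median. Plasma carriers are high on the Lung array (median 3.33), lung epithelium genes on the Liver array (2.64) and kidney tubule genes on the Kidney array (3.46).

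Genes lower on the Lung array than on both others belong to several cell types. Their share over all genes was 3.55%, and that of genes 2-fold lower than the mean was 8.32%. In bile duct epithelium, 5 of 8 measured genes were 2-fold lower, 4 below both arrays, and 1, Krt18, was higher (median -1.45). Krt7, a keratin of duct cells, stood at -4.32 on the Lung array, -0.03 on the Kidney array and 1.63 on the Liver array. The keratins that hepatocytes make, Krt18 and Krt8, differed from the mean by 1.89 and 0.97. In the endothelial list, 5 of 7 were 2-fold lower, 2 below both arrays, and none was higher (median -1.52). Car4, a carbonic anhydrase of capillary walls, stood at -2.71 on the Lung array, 1.60 on the Kidney array and 1.92 on the Liver array. Pecam1, the endothelial adhesion molecule, stood at -0.32 on the Lung array, -0.07 on the Kidney array and 2.46 on the Liver array. In bulk RNA, fewer cells of a type and less RNA per cell cannot be told apart.

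Matrix genes were more often lower than higher: 10 of 23 were 2-fold lower, 9 below both arrays, and 2, Fn1 and Dcn, were higher (median -0.95). For this and the next lists, the shares over all genes were 8.32% lower, 3.55% below both and 7.06% higher. Timp3, an inhibitor of matrix proteases, stood at -1.29 on the Lung array, 3.60 on the Kidney array and 2.15 on the Liver array. Mgp, matrix Gla protein, stood at -1.76 on the Lung array, 0.58 on the Kidney array and 3.82 on the Liver array. Fn1, fibronectin, which hepatocytes secrete into plasma, stood at 0.11 on the Lung array, -4.04 on the Kidney array and -2.34 on the Liver array. Genes of the actin cytoskeleton were lower too, 18 of 37 against none higher, with 7 below both arrays (median -0.97). Ezr, which links actin to the membrane, stood at -2.49 on the Lung array, 1.60 on the Kidney array and 0.88 on the Liver array, and its 4 probes gave -4.14 to -2.71. Smooth muscle genes were lower in 4 of 8 (Cnn2, Myl9, Mylk and Smtn), with none higher (median -0.91).

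Of 11 measured blood genes, 4 (Hbb-b1, Bpgm, Lyz2 and Ighm) were 2-fold lower than the mean, against 8.32% of all genes. Only 1, Hbb-b1, was 2-fold below both arrays, against 3.55% of all genes, and none was higher (median -0.95). Lyz2 and Ighm were lower than the mean but higher than on the Kidney array. Lyz2, the lysozyme of myeloid cells, stood at 0.47 on the Lung array, -1.43 on the Kidney array and 6.18 on the Liver array. Ighm stood at -0.08 on the Lung array, -0.31 on the Kidney array and 3.40 on the Liver array. Haemoglobin Hbb-b1 stood at -3.65 on the Lung array, -2.30 on the Kidney array and 0.24 on the Liver array.

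The Lung array was the lowest of 11 for 885 of 7035 genes (12.6%), and the genes below are among them. Pkm, the muscle form of pyruvate kinase that hepatocytes replace with another isozyme, stood at -3.72 on the Lung array, -0.79 on the Kidney array and -0.67 on the Liver array, and between -0.08 and 1.69 on the other 8. Its 2 probes gave differences of -3.13 and -2.84. Oxct1, which begins the use of ketone bodies and is known to be missing from hepatocytes, stood at -2.78 on the Lung array, 3.06 on the Kidney array and -0.46 on the Liver array, and between -0.01 and 3.05 on the other 8. Ldhb, the heart form of lactate dehydrogenase, stood at -3.52 on the Lung array, 3.89 on the Kidney array and 0.60 on the Liver array, with the lowest of the other 8 at -2.56. Cd63, a lysosomal tetraspanin, stood at -3.50 on the Lung array, 1.89 on the Kidney array and -0.34 on the Liver array, and its 3 probes gave -4.78 to -3.90.

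Other lists hardly set the Lung array apart. Of 56 measured cell cycle genes, 2 were 2-fold higher (Tk1 and Aurka) and 2 lower (Ccnd3 and Stmn1; median 0.05), and the levels were below the embryo on all 3 arrays: the list's median was -1.26 on the Lung array, -1.55 on the Kidney array and -1.18 on the Liver array. Of 71 cytosolic ribosomal protein genes, none was higher and 1 lower, Rps24 at -1.04 (median -0.35). Fetal liver and embryonic genes did not mark it: none of 10 was higher and 1, Gpc3, was lower (median -0.27), with the imprinted Igf2 at -6.62 on the Lung array, -5.36 on the Kidney array and -6.05 on the Liver array. Heart and striated muscle genes were lower in 2 of 7 (Myl4 and Fabp3) with none higher (median -0.49), and melanocyte genes in 2 of 6 (Kit and Rab27a) with none higher (median -0.83). Probes disagreed for Fabp3, at -2.07 and -0.35, and for Kit, at -0.18 and -1.82. The share of all genes was 8.32% lower and 7.06% higher. The sign of the fetal and heart medians turned to 0.06 and 0.04 under quantile normalization.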

How the data were processed

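Each of 11 samples was hybridised once, own RNA with Cy3 and mouse embryo reference RNA with Cy5, per the labels. The deposited log2 ratios (base assumed) came from the authors' series table of 15247 probes; how the authors corrected background and normalized is not given in the sources used here. Deposited column medians were -0.012 (Lung), -0.0347 (Kidney) and 0.00835 (Liver).

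Signs were turned, array medians were set to 0, and probes with 1 gene symbol (9600; 214 had several, 5433 none listed) were averaged per gene. Of these, 9492 were found by gene number in the RefSeq table of GRCm38.p6. The platform annotation can be old. Intensities were not analysed here, so it is not known how far a signal lay above background, and precision is limited by the number of arrays.

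Differences were taken per gene with Python 3.11.15, numpy 2.4.6 and pandas 2.3.3, and the code was tested on simulated data. With 1 array per group no test was made. Named genes were the 20 highest and 20 lowest of Lung minus mean, the 15 farthest above and below both arrays, the 15 highest and 10 lowest of 11 by gap, the 4 markers, and per list all measured genes, or 10 where it had over 12. Members and 31 lists were chosen with earlier results of these data known.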

Additional observations from a re-analysis of the deposited data

How the results depend on the processing

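Values rest on 1 array per sample, an assumed log base and an assumed sign. No paired analysis was possible because each group has 1 array, and no replicate could be left out. As reported, 1087 genes were 2-fold from the mean of Kidney and Liver, 296 above both and 251 below both, and the marker median was 7.84. Genes with several probes alone gave 198, 48 and 50 (no marker has 2 probes, so no median), a 4-fold threshold 298, 98 and 53, and natural logarithms 1809, 468 and 470. With the sign as deposited the marker median was -7.84. No centring, quantile normalization, the median of probes, 1 probe per gene, and the Kidney array alone, the Liver array alone or Kidney, Liver and Heart together as the comparison left each count that they gave within 1.5 times and the marker median at 7.36 to 8.27. Under quantile normalization the count from the mean was 924, and against the Liver array alone 1607. Of 124 list medians under alternative settings, 7 moved by more than the 0.494 root mean square SD between probes, all under quantile normalization (carriers of plasma 3.59, complement 1.94). Among 1072 values of 268 named genes 82 did so, and none that was 2-fold apart changed sign; the median of probes gave Ahcy 4.32 and Gstm1 3.05.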

Other observations

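Enzymes of cholesterol synthesis, a set chosen after its values were seen, stood high on the Lung array. Of 9 measured of 19, 7 were 2-fold above both the Kidney and Liver arrays, against 4.19% of all genes. None was 2-fold lower (median Lung minus mean difference 2.43). Dhcr7, the last enzyme of cholesterol synthesis, stood at 2.03 on the Lung array, -1.04 on the Kidney array and -1.35 on the Liver array. Idi1, an isoprenoid isomerase, stood at 3.23 on the Lung array, 0.17 on the Kidney array and -0.04 on the Liver array. Fdft1, squalene synthase, stood at 2.27 on the Lung array, -0.99 on the Kidney array and -0.59 on the Liver array. Hmgcs1 and Nsdhl were not apart, at -0.18 and -0.32. Against the next highest of all arrays, Dhcr7 was 2.31, Idi1 2.03, Fdft1 1.47 and Msmo1 0.74 higher on the Lung array. Others were near or above the Lung level on the VA_475 array. Mvd stood at 1.60 on the Lung array and 2.01 on the VA_475 array, Sqle at 1.33 and 1.27, and Lss at 1.92 and 1.60.

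Glycolytic genes, also chosen after their values were seen, were not apart as a group (12 of 19 measured, 1 higher, 3 lower, median 0.28). The shares over all genes were 7.06% higher and 8.32% lower. Pkm and Ldhb were 2-fold below both arrays. Ldha, the other main lactate dehydrogenase subunit, stood at 0.32 on the Lung array, -0.28 on the Kidney array and -0.57 on the Liver array, and was thus highest on the Lung array of the 3, where Ldhb was lowest. Hk1 was lower, by -1.10 from the mean. Igf1, the growth factor that liver secretes, stood at 3.60 on the Lung array, -0.48 on the Kidney array and -0.24 on the Liver array, and was also chosen after its values were seen. Stmn3, known as a gene of neurons, stood at 0.65 on the Lung array, -3.18 on the Kidney array and -3.55 on the Liver array, with 1 probe, and was likewise chosen after its values were seen.

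Probes without a single gene name were 2-fold apart less often than the named genes, of which 4.19% were above both arrays and 3.55% below both. The values of named genes average their probes, so the shares are not strictly alike. Of 5605 on the 3 arrays, 145 (2.59%) were 2-fold above both the Kidney and Liver arrays and 96 (1.71%) 2-fold below both, and 10 were 16-fold above both. The most extreme were 6.54 above and -4.38 below, against 8.75 for Alb and -5.19 for Gpx3 among the named genes.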
